A study of Mus musculus with 4 samples.

Results

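The 9 genes described here, Kcnk4, Raver2, Nav1, Clic6, Palm3, Rims3, Cspg4, Zcchc3 and Dnah7c, are genes whose promoters carried more DNA methylation in anti-PD1-resistant than in parental mouse lung tumors. They were chosen by the measured values themselves, because their mean promoter methylation is higher in the resistant line, and they are 9 of 20135 genes with a measured promoter. The difference between the lines is therefore given as a description, without a test. The assay, reduced representation bisulfite sequencing (RRBS), cuts DNA with MspI at CCGG and sequences the fragment ends after bisulfite has turned unmethylated cytosines into uracil, so that each read shows whether a CpG was methylated.

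The tumors came from 344SQP, a parental lung adenocarcinoma line of the p53R172HΔg/+ KrasLA1/+ mouse model, and from 344SQR, a single resistant line derived from it, so the comparison is between 2 related lines and not between many resistant and sensitive tumors. Cells were injected under the skin of the leg of female 129Sv/Ev mice aged 12 to 16 weeks, which are syngeneic and keep their own immune and stromal cells. All mice received anti-PD1 at 10 mg/kg from day 4, 4 doses in total, and tumors were taken 24 h after the last dose. There were 2 tumors of 344SQP and 2 of 344SQR, numbered replicate 1 and 2 in each line, with 116794455 and 138331886 CpG calls in the parental and 160548303 and 174689402 in the resistant tumors.

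Methylation of cytosine at CpGs is copied through cell division. CpG-rich promoters are mostly free of it in normal tissue, gene bodies mostly carry it, and dense methylation around a transcription start site (TSS) is known to go with a silent gene. Tumors often gain methylation at some CpG-rich promoters while they lose it elsewhere. RNA was not analysed here, so nothing is said of expression. A promoter spanned 1000 bp before and 500 bp after each annotated TSS, a site is a CpG cytosine on 1 strand with at least 20 reads in all 4 tumors, and the methylation of a promoter in a tumor is the mean percent of methylated reads over its sites.

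The 9 promoters held 253 sites. Averaged over the 9 genes, methylation was 26.7% and 36.6% in replicates 1 and 2 of 344SQP and 46.0% and 65.5% in replicates 1 and 2 of 344SQR, where the average over all 20135 promoters was 22.9%, 24.5%, 21.8% and 21.6% in the same order. The higher average of the members in 344SQR follows from their choice. The average over all promoters was lower in both resistant tumors than in both parental ones. The difference of a member (resistant minus parental) ranged from 21.2 points in Dnah7c to 34.7 points in Clic6, with a median of 22.9 points against −0.233 points over all promoters, and without replicate 2 of 344SQR the median was 12.0 points. In each of the 9 genes, chosen for this difference, it exceeded the SD of both lines, as it did in 7.62% of all promoters. Both resistant tumors lay above both parental tumors in 8 of the 9 genes, the exception being Raver2, and in 7.58% of all promoters. The choice of the genes favors this order. A higher mean in resistant tumors, which the choice of the genes fixes, was found in 32.2% of all promoters. Among the 16692 promoters with at least 5 sites, 24 (0.144%) differed by at least 20 points in this direction, and the 9 genes are among them. In bulk tumor DNA, methylation of the tumor cells and the share of host cells cannot be told apart.

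Tumors of the same line also differed from each other. Replicate 2 of 344SQR had the highest value of the 4 tumors in 8 of the 9 genes, all but Palm3. The choice of the genes favors a resistant tumor as the highest, and over all promoters the share was 22.0%. Replicate 2 was above replicate 1 in both lines in 7 of the 9 genes, and in 36.1% of all promoters. Palm3 and Dnah7c departed from this pattern, since their parental tumors were lower in replicate 2. Compared within the same replicate number, the resistant tumor was the higher one in all 9 genes, which the choice of the genes favors, and in 17.5% of all promoters. In 4 genes, Kcnk4, Raver2, Rims3 and Zcchc3, replicate 1 of 344SQR was less than 5 points above replicate 2 of 344SQP or, in Raver2, below it. In 8 of the 9 genes, all but Palm3, tumors of the same line were farther apart than the nearest tumors of different lines, as in 88.0% of all promoters.

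**Figure D1:**
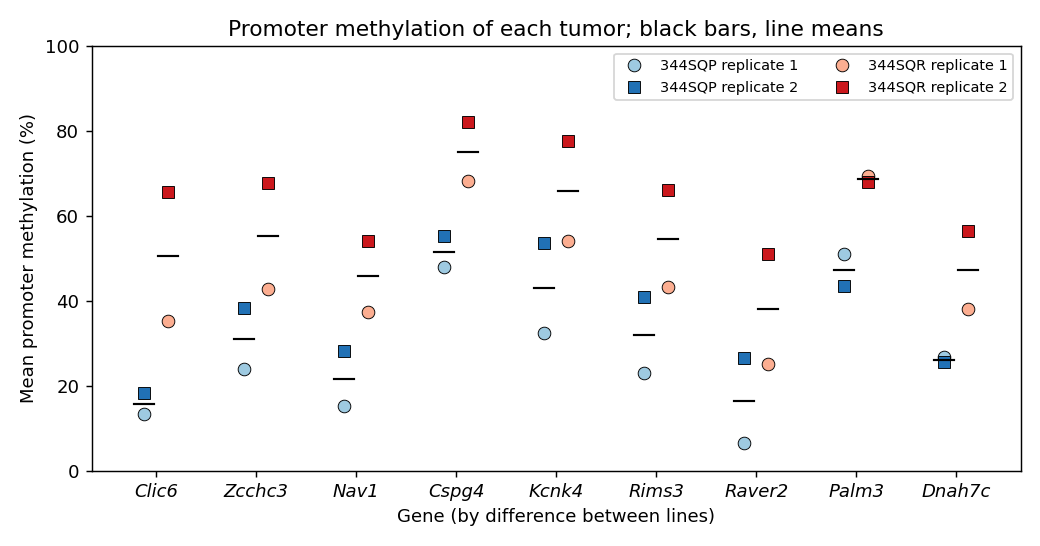
Mean promoter methylation (vertical axis, percent of methylated reads averaged over sites) of the 9 genes (horizontal axis, ordered by difference) in each of the 4 tumors. Blue symbols are 344SQP, red symbols 344SQR, circles replicate 1, squares replicate 2 and black bars line means; in Clic6 the resistant tumors were at 35.3% and 65.6% against 13.3% and 18.2%, and only in Raver2 do the lines overlap.

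The genes fall into groups by what their proteins do. Kcnk4 and Clic6 belong to ion channel families. Kcnk4 encodes TRAAK, a mechanosensitive leak potassium channel, and its promoter (ENSMUSG00000024957, minus strand of chromosome 19, chr19:6934015-6935515 of mm10, TSS at 6934515) had 25 sites, each read 46 to 263 times. Promoter methylation was 32.4% and 53.6% in the parental and 54.2% and 77.6% in the resistant tumors, or 43.0% ± 15.0 (SD, n = 2) against 65.9% ± 16.5 (SD, n = 2). The lines were 0.621 points apart at their closest. Without replicate 2 of 344SQR the difference of 22.9 points was 11.2 points, without replicate 1 of 344SQP 12.3 points and without replicate 1 of 344SQR 34.6 points. All 25 sites lay downstream of the TSS, from 20 to 496 bp into the gene, so nothing upstream of the TSS was measured within the window.

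The gain along Kcnk4 was uneven. Next to the TSS, at 2 sites of the 5′ untranslated sequence, methylation was 57.5% and 89.3% in the parental and 77.6% and 84.3% in the resistant tumors, and the lines overlapped. The 8 intron sites from 188 to 233 bp had 54.3% and 72.3% against 66.4% and 89.4%, again with overlap. At the 15 intron sites from 280 to 496 bp the lines separated, with 17.4% and 38.8% against 44.6% and 70.4%, a difference of 29.4 points. The difference of this promoter was thus larger in the intron than at the start of the transcript. With a window of −500 to +250 bp, which leaves out those sites, it was 13.2 points.

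The same intron stretch ran on past the window. Just beyond it, 8 sites from 508 to 528 bp formed a dip, at 6.20% and 16.2% against 28.9% and 34.9%, and 13 sites from 541 to 587 bp were at 26.0% and 52.2% against 54.0% and 72.9%. These 21 sites make up the whole measured downstream flank of Kcnk4 (the 5 kb next to the window), and its mean was 18.4% and 38.5% in parental and 44.4% and 58.4% in resistant tumors, higher at all 21 sites. The upstream flank went the other way. Its 8 sites, from −4349 to −3604 bp, were at 42.2% and 31.8% in the parental and 35.9% and 10.7% in the resistant tumors, and each of the 8 sites had a lower mean in the resistant line, but the lines overlapped. Most of that fall lies in replicate 2 of 344SQR, without which the difference of −13.7 points was −1.07 points, while it was −26.3 points without replicate 1 of that line and −8.47 points without replicate 1 of 344SQP. The downstream difference of 23.0 points was 12.9 points without replicate 1 of 344SQP. Of the upstream flanks of all promoters with one measured, 23.2% were higher in the resistant line, so a lower one was the usual case.

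Clic6 encodes a member of the chloride intracellular channel family, and its promoter (ENSMUSG00000022949, plus strand, chr16:92497134-92498634, TSS at 92498134) had the largest difference of the promoters with at least 5 sites. It rests on 8 sites with 50 to 137 reads, all in the 5′ untranslated part of exon 1, from 112 to 259 bp downstream of the TSS. Methylation was 13.3% and 18.2% in the parental and 35.3% and 65.6% in the resistant tumors, which is 15.8% ± 3.51 (SD, n = 2) against 50.5% ± 21.5 (SD, n = 2). The parental tumors lay close together and the resistant tumors far apart, and without replicate 2 of 344SQR the difference of 34.7 points was 19.5 points.

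Within Clic6 the gain fell off along the exon. At the 3 sites from 112 to 118 bp it was largest, with 17.5% and 14.6% against 48.7% and 79.8%. At the 3 sites from 240 to 259 bp the values were 5.57% and 5.33% against 10.1% and 38.9%, so replicate 1 of the resistant line was nearly as low as the parental tumors there. Past the window, 27 sites in the coding part of exon 1, from 585 to 1195 bp, had 5.31% and 4.56% against 13.2% and 15.2%. The lines did not overlap in that stretch, but all 4 tumors were low. Farther in, at 4 intron sites from 2711 to 2822 bp, all tumors were highly methylated, at 89.0% and 87.9% against 87.8% and 86.9%. That mean hides sites of both directions, from 93.8% and 88.5% against 82.8% and 62.5% at 2822 bp to 82.1% and 80.8% against 88.7% and 96.8% at 2738 bp. With the comprehensive annotation, which adds TSSs, the difference of Clic6 was 15.0 points.

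Rims3 and Nav1 are best known from neurons. Rims3 encodes a RIM protein of the presynaptic active zone, where it takes part in neurotransmitter release. Of its 3 annotated TSSs on the plus strand of chromosome 4 (ENSMUSG00000032890), at 120854819, 120861777 and 120877869, only the first, whose window is chr4:120853819-120855319, had measured sites, and those were 54, from 23 to 377 bp downstream of it. No site was measured near the TSS at 120877869, and none in the 5 kb flanks. With 25 to 214 reads per site, the promoter had 23.0% and 41.0% methylation in the parental and 43.2% and 66.2% in the resistant tumors, or 32.0% ± 12.7 (SD, n = 2) against 54.7% ± 16.3 (SD, n = 2). The tumors of the lines were 2.21 points apart at their closest, less than the distance within either line. Without replicate 2 of 344SQR the difference of 22.7 points was 11.2 points, without replicate 1 of 344SQP 13.7 points and without replicate 1 of 344SQR 34.2 points.

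The Rims3 profile had high and low stretches that all 4 tumors shared. The 15 sites from 23 to 95 bp were the most methylated, at 44.1% and 67.4% in parental and 72.6% and 87.5% in resistant tumors. Next to them, the 8 sites from 101 to 148 bp were low in every tumor, at 7.93% and 19.4% against 15.7% and 28.1%, and there the lines overlapped. The level rose again at the 6 sites from 162 to 185 bp, to 23.4% and 50.6% against 50.7% and 82.3%. From 222 to 377 bp, across the end of exon 1 and into the intron, the 25 sites had 15.0% and 29.7% against 32.5% and 61.7%. The resistant mean was higher at 52 of the 54 sites. The largest single difference was at the first site, 23 bp from the TSS, where 36.4% of 33 reads (95% Wilson interval 22.2–53.4) and 41.3% of 63 reads (29.96–53.6) were methylated in the parental and 84.6% of 52 reads (72.5–92.0) and 83.2% of 143 reads (76.2–88.5) in the resistant tumors. Such intervals cover counting error only, since no molecular identifiers were reported for the libraries, and sites read on the same fragment share reads and are not independent measurements.

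Nav1 encodes neuron navigator 1, a microtubule-associated protein of migrating neurons and not a sodium channel. It has 3 annotated TSSs on the minus strand of chromosome 1 (ENSMUSG00000009418), at 135585355, 135585705 and 135607295, and the last had no measured site, so no value describes the start of the longest transcript. The windows of the other 2 TSSs overlap and hold 16 and 12 sites. Over the 16 sites methylation was 15.3% and 28.1% in the parental and 37.4% and 54.2% in the resistant tumors, or 21.7% ± 9.02 (SD, n = 2) against 45.8% ± 11.9 (SD, n = 2), and the lines did not overlap. The window of the TSS at 135585705 (chr1:135585205-135586705), which leaves out the coding sites, had 4.12% and 12.2% against 25.6% and 43.7%. Its parental values were the lower ones, and its difference of 26.4 points was close to that of the whole promoter, 24.1 points, which was 15.7 points without replicate 2 of 344SQR.

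Methylation at Nav1 rose from the TSSs into the coding sequence. Upstream of both TSSs, 4 sites in the intron of the longest transcript had 6.62% and 22.8% in the parental and 43.9% and 76.2% in the resistant tumors, the largest difference of the stretches of this gene, 45.3 points. Between the TSSs, 8 sites of 5′ untranslated sequence were low in the parental tumors, at 2.88% and 6.94%, and reached 16.4% and 27.4% in the resistant tumors. The 4 coding sites from 274 to 312 bp after the TSS at 135585355 were already at 48.9% and 75.6% against 72.8% and 85.6%, and the lines overlapped there. These 4 sites also fall in the promoter of the antisense gene Gm4793, which starts 582 bp after that TSS on the other strand. Past the window, 9 coding sites had 86.6% and 95.5% against 93.6% and 95.5%, so the gene body was methylated in all tumors. The whole downstream flank of 12 sites differed by 3.86 points, without replicate 1 of 344SQP by −0.958 points and without replicate 2 of that line by 8.68 points. With the comprehensive annotation the promoter difference of Nav1 was 10.3 points. The intron stretch is printed because it had the largest gain at Nav1 and lies less than 100 bp upstream of the TSS at 135585705. It covers chr1:135585720-135585775 of GRCm38.p6, read on the minus strand, with the 4 measured CpGs in capitals.
Nav1: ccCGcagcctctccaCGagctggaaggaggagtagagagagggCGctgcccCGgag

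The axonemal dynein heavy chain Dnah7c, a motor protein of cilia, had the smallest difference of the 9 genes and ranked 21 among the promoters with at least 5 sites. Its TSS at 46425592 on the plus strand of chromosome 1 (ENSMUSG00000101337, chr1:46424592-46426092) had 12 sites with 98 to 242 reads, while the window of its other TSS, at 46608961, had none. Methylation was 26.7% and 25.5% in the parental and 38.0% and 56.5% in the resistant tumors, which is 26.1% ± 0.819 (SD, n = 2) against 47.3% ± 13.0 (SD, n = 2). The parental tumors were within 1.5 points of each other, and replicate 1 of 344SQR lay 11.4 points above the higher of them. Without replicate 2 of 344SQR the difference was 12.0 points.

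In Dnah7c the sites straddled the TSS, from 165 bp upstream to 17 bp downstream, and the resistant mean was higher at all 12. The 5 sites farthest upstream, from −165 to −86 bp, gained least, with 22.6% and 20.6% against 29.9% and 41.2%. The 3 sites from −74 to −59 bp had 41.9% and 32.5% against 52.2% and 76.0%. At the 4 sites around the TSS itself, from −11 to 17 bp, values were 20.3% and 26.4% against 37.7% and 61.0%, and the lines were apart at each of the 4 sites. Dnah7c has near-identical paralogs, Dnah7a and Dnah7b, and only reads that matched a single place in the genome were kept, so the measured sites are those where the copies differ enough. The paralogs had other profiles. The promoter of Dnah7a was at 51.8% and 86.5% in the parental and 60.8% and 87.9% in the resistant tumors, with overlap, and that of Dnah7b was low throughout, at 7.96% and 10.7% against 2.58% and 4.82%, with the resistant tumors below the parental ones.

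Palm3 and Cspg4 encode proteins of the plasma membrane. Palm3, a membrane-associated protein of the paralemmin family (ENSMUSG00000047986, plus strand, chr8:84020471-84021971, TSS at 84021471), had 29 sites, each read 21 to 249 times. Its values were 51.0% and 43.4% in the parental and 69.5% and 68.1% in the resistant tumors, or 47.2% ± 5.35 (SD, n = 2) against 68.8% ± 0.955 (SD, n = 2). The resistant tumors were nearly equal, and the lines were 17.2 points apart at their closest, the widest such gap of the 9 genes. Unlike the other 8 genes, Palm3 did not have its highest value in replicate 2 of 344SQR, and leaving that tumor out gave a difference of 22.3 points in place of 21.6 points. With the comprehensive annotation the difference was 16.5 points, and with a coverage of at least 50 reads 26.4 points.

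The gain at Palm3 was largest upstream of the TSS. All 13 sites from −265 to −165 bp had both resistant tumors above both parental tumors, with means of 44.2% and 39.5% against 73.0% and 75.9%. The 7 sites from −127 to −54 bp had 58.0% and 46.5% against 68.1% and 68.8%, a smaller difference, and these sites had as few as 21 reads. Inside the gene, the 3 coding sites from 34 to 57 bp overlapped between lines, at 41.8% and 25.3% against 44.3% and 34.6%, and the 5 intron sites from 78 to 116 bp did not, at 63.4% and 55.5% against 80.6% and 70.6%. At the outermost site, −384 bp, the resistant tumors were the lower ones, at 53.2% and 50.0% of reads against 55.0% and 66.4%, so the stretch with the gain ended before it. The downstream flank, measured at 23 sites more than 4 kb into the gene, had 65.6% and 84.4% against 65.6% and 77.5%, and the lines overlapped. Its difference of −3.41 points took either sign when a tumor was left out, from −12.8 to 6.01 points. Within this flank, the 10 sites from 4653 to 4826 bp had 44.1% and 77.6% against 51.3% and 73.5%, with overlap. At the 13 sites from 5256 to 5500 bp both resistant tumors were below both parental ones, at 82.1% and 89.6% against 76.6% and 80.6%. The site at 5366 bp had 61.3% and 68.0% against 26.3% and 21.8%. At the 7 CpGs of the Palm3 promoter read on both strands, the strands differed by 19.2 and 14.2 points on average in the parental and by 4.54 and 15.1 points in the resistant tumors, more than in Raver2 or Rims3 in all but replicate 1 of 344SQR. The upstream stretch is printed because it holds the 13 sites from −265 to −165 bp, the stretch of this promoter with the largest gain. It covers chr8:84021121-84021420 of GRCm38.p6 on the plus strand, with 15 of its 18 CpGs measured and in capitals.
Palm3: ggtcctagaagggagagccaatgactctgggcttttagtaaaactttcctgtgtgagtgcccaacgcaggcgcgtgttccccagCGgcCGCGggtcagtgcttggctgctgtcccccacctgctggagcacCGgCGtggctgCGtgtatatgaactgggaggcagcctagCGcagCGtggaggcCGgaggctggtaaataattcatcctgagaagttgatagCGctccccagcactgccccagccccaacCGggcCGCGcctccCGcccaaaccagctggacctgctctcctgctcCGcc

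Cspg4, the NG2 proteoglycan known from pericytes and oligodendrocyte precursors (ENSMUSG00000032911, plus strand, chr9:56864033-56865533, TSS at 56865033), had the highest resistant mean of the 9 genes. Its 12 sites, read 34 to 120 times, had 48.0% and 55.2% in the parental and 68.2% and 82.2% in the resistant tumors, or 51.6% ± 5.07 (SD, n = 2) against 75.2% ± 9.89 (SD, n = 2). The lines did not overlap and were 13.0 points apart at their closest. Around the TSS, the 4 sites from −7 to 33 bp had 43.7% and 34.6% against 57.2% and 83.1%, and at the start of the coding sequence the 7 sites from 151 to 179 bp had 45.5% and 60.6% against 70.4% and 81.7%. In both stretches the lines were apart. The last site, 394 bp into the gene and in an intron, was highly methylated in all 4 tumors, at 83.3% of 36 reads (95% Wilson interval 68.1–92.1) and 100% of 36 reads (90.4–100) in the parental and 97.1% of 34 reads (85.1–99.5) and 82.2% of 45 reads (68.7–90.7) in the resistant tumors. The 5 sites of the downstream flank averaged 75.4% and 75.0% against 78.5% and 75.4%, a mean that hides a difference between sites, since 4 of the 5 were higher in the resistant line and the site at 5038 bp was lower, with 93.9% and 89.3% against 79.0% and 75.9%. With coverage of at least 10 reads, which adds sites, the flank difference of 1.84 points was −2.03 points, and leaving out resistant replicates 1 or 2 gave 0.293 or 3.38 points. With the comprehensive annotation the promoter difference of Cspg4 was 5.35 points. The 12 promoter sites are also the promoter of Odf3l1, which starts at −354 bp on the other strand, so they cannot be assigned to 1 of these genes.

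Raver2 and Zcchc3 encode proteins that bind RNA or DNA. Raver2, a partner of the splicing repressor PTB (ENSMUSG00000035275, plus strand, chr4:101067983-101069483, TSS at 101068983), had the most sites, 85, each read 58 to 356 times. It is also the gene whose lines overlapped. Its values were 6.46% and 26.4% in the parental and 25.1% and 51.1% in the resistant tumors, or 16.4% ± 14.1 (SD, n = 2) against 38.1% ± 18.4 (SD, n = 2), so replicate 1 of 344SQR was below replicate 2 of 344SQP, by a gap of −1.31 points. Without replicate 2 of 344SQR the difference of 21.7 points was 8.68 points, without replicate 1 of 344SQP 11.7 points and without replicate 1 of 344SQR 34.7 points.

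The sites of Raver2 lay between −22 and 300 bp from the TSS, through a CpG-dense stretch, and formed sharp steps. At the 9 sites around the TSS, from −22 to 3 bp, all tumors were low, at 3.95% and 7.43% against 10.8% and 17.3%. The 33 sites of the 5′ untranslated sequence from 8 to 124 bp had 6.21% and 30.04% against 23.5% and 59.6%, and overlapped between the lines. The gain was largest in the first coding exon, at the 14 sites from 175 to 217 bp, with 5.89% and 29.5% against 40.5% and 72.7%. These sites separated the lines where the promoter as a whole did not. So did the 9 sites around the TSS and the 12 coding sites from 135 to 154 bp, at 6.55% and 21.8% against 28.3% and 51.2%. The 6 sites from 160 to 169 bp overlapped, at 4.77% and 12.9% against 11.7% and 17.7%. At the 4 sites from 221 to 226 bp, right after the stretch with the largest gain, both resistant tumors lay between the parental ones. They had 21.9% and 50.5% against 24.8% and 29.8%, and the difference was −8.88 points. The 7 sites from 240 to 300 bp were again higher in resistant tumors, at 4.47% and 33.5% against 26.6% and 52.1%, with overlap. In the flank, 8 intron sites from 679 to 857 bp had 11.5% and 27.7% against 20.6% and 31.8%, a difference of 6.64 points that ran from −1.43 points without replicate 1 of 344SQP to 14.7 points without its replicate 2.

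Single sites of Raver2 show this change along the exon. At the site 205 bp after the TSS, 3.96% of 101 reads (95% Wilson interval 1.55–9.74) and 9.47% of 95 reads (5.06–17.0) were methylated in the parental and 44.7% of 179 reads (37.6–52.0) and 80.1% of 201 reads (74.0–85.0) in the resistant tumors. At the site 225 bp after the TSS the parental tumors had 34.6% of 104 reads (26.2–44.2) and 58.9% of 112 reads (49.7–67.6), and the resistant tumors 19.9% of 231 reads (15.3–25.5) and 25.8% of 244 reads (20.7–31.7). The intervals of the lines did not overlap at the former site, and at the latter, the lowest difference of the 85 sites, both parental tumors were higher. The other strand of the same CpG, 226 bp after the TSS, did not show this, with 25% and 53.5% of reads against 26.0% and 36.0%. Across the 36 CpGs of the Raver2 promoter read on both strands, the strands differed by 3.60 and 9.58 points on average in the parental and 6.68 and 8.99 points in the resistant tumors. The coding stretch is printed because it holds both the largest gain and the sites without one. It covers chr4:101069115-101069286 of GRCm38.p6 on the plus strand, and its 24 measured CpGs, of 25, are in capitals.
Raver2: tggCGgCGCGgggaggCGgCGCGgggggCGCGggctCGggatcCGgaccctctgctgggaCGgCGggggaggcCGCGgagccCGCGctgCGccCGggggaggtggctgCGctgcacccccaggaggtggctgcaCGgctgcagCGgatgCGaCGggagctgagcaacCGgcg

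**Figure D2:**
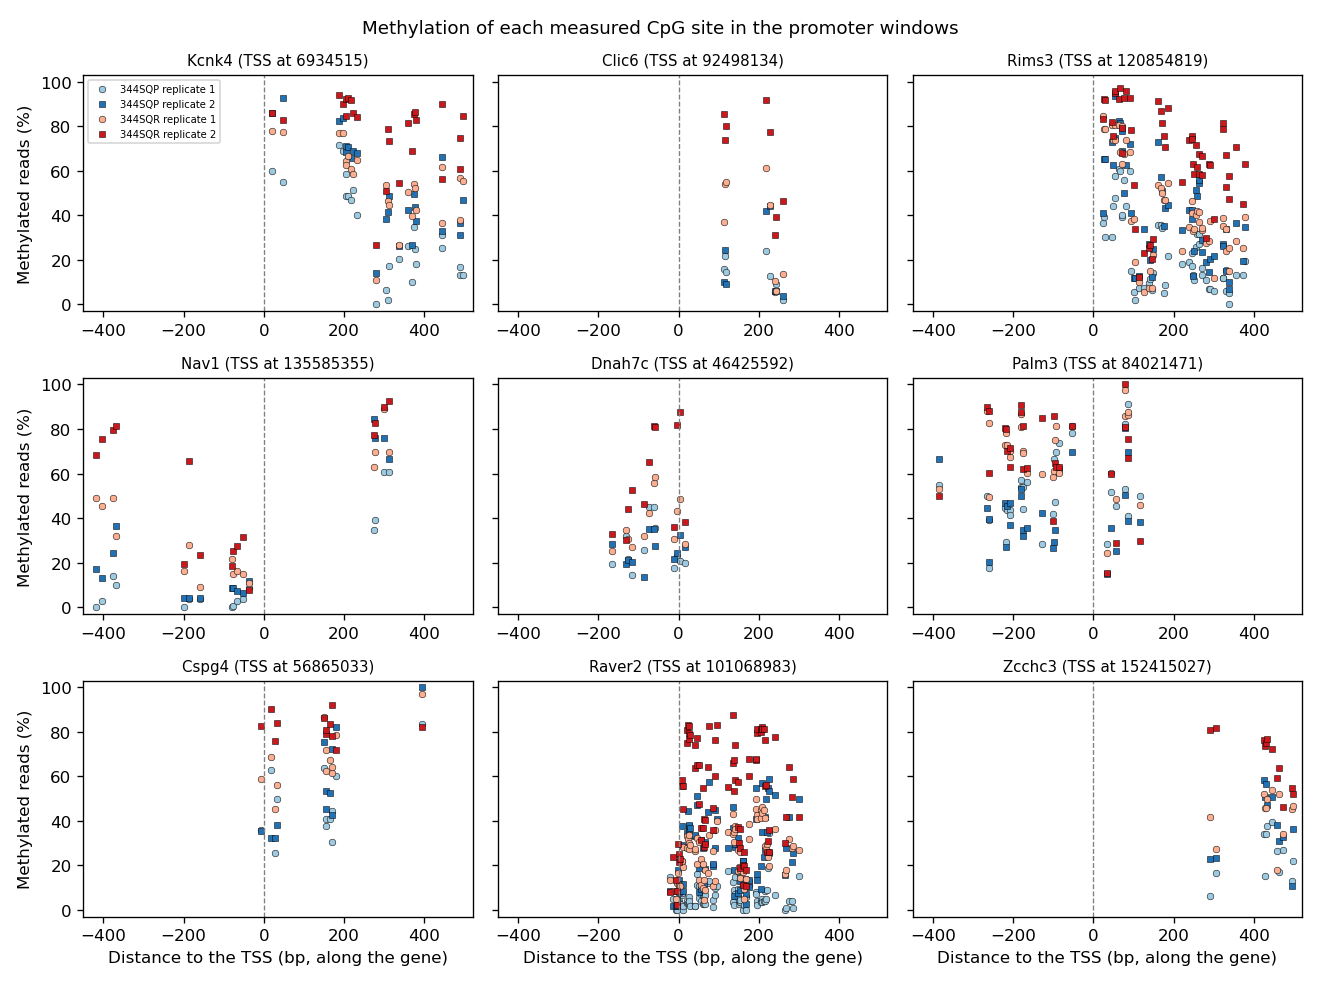
Methylation (vertical axis, percent of methylated reads) of each measured promoter site of the 9 genes against its distance from the TSS (horizontal axis, bp), with 1 panel per gene and 1 color and symbol per tumor. In Raver2 the resistant tumors are high from 175 to 217 bp and drop at the sites from 221 to 226 bp, and in Palm3 the lines part at the sites from −265 to −165 bp.

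Zcchc3 encodes a zinc-finger protein that binds nucleic acids and acts as a co-sensor for cGAS and RIG-I, and its single exon lies on the minus strand of chromosome 2 (ENSMUSG00000074682, chr2:152414527-152416027, TSS at 152415027). Its 12 promoter sites, with 49 to 144 reads, are all in the coding sequence, from 292 to 498 bp after the TSS, so neither the TSS nor anything upstream was measured. Methylation was 24.0% and 38.2% in the parental and 42.8% and 67.7% in the resistant tumors, or 31.1% ± 10.1 (SD, n = 2) against 55.3% ± 17.7 (SD, n = 2). The lines did not overlap, and the difference of 24.1 points was 11.6 points without replicate 2 of 344SQR and 36.6 points without its replicate 1. The 2 sites from 292 to 305 bp gained most, from 11.2% and 23.1% to 34.6% and 81.2%, with replicate 2 of 344SQR far above the other tumors. Of the 12 sites, 6 with 23.9% and 43.2% against 43.9% and 77.4% also fall in the promoter of 6820408C15Rik, which starts at −560 bp on the other strand.

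Zcchc3 was the gene with the longest measured run. From 292 to 1340 bp after the TSS, 93 sites with no wide gap had 36.5% and 49.6% in the parental and 49.8% and 72.4% in the resistant tumors, and 90 of the 93 had a higher resistant mean. Beyond the window, the 56 sites from 510 to 980 bp had 28.6% and 47.3% against 41.6% and 72.0%, with overlap. The 25 sites from 1018 to 1340 bp had 60.1% and 60.1% against 71.4% and 75.7%, without overlap. Toward the end of the exon, 7 sites of the 3′ untranslated sequence had 86.2% and 75.6% against 77.2% and 66.6%, and the lines overlapped. Much of that difference of −9.02 points comes from the site 2294 bp after the TSS, with 83.0% and 67.2% against 55.3% and 17.5%. The coding stretch from 289 to 501 bp after the TSS is printed because all 12 sites lie in it. It covers chr2:152414526-152414738 of GRCm38.p6, read on the minus strand, with the measured CpGs, 12 of 30, in capitals.
Zcchc3: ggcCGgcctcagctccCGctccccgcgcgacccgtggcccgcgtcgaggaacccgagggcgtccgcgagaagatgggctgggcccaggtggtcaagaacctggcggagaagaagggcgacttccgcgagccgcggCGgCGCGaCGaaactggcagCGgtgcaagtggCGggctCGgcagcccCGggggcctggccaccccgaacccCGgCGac

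Where the sites lay decided what each promoter value describes. In 4 genes, Kcnk4, Clic6, Rims3 and Zcchc3, every site was downstream of the TSS, and in 4 others, Raver2, Palm3, Cspg4 and Dnah7c, at least 1 site was upstream of every TSS. Over the members, the 38 upstream sites had 36.2% and 32.2% in parental and 52.2% and 58.9% in resistant tumors, the 107 sites of 5′ untranslated sequence 18.0% and 35.0% against 36.6% and 61.5%, and the 66 coding sites 16.6% and 34.5% against 37.4% and 57.7%. The 42 intron sites had 29.0% and 43.8% against 51.0% and 73.2%. Only the upstream sites, most of them from Palm3, were lower in replicate 2 than in replicate 1 of the parental line. Of all 253 sites, 241 had a higher mean in the resistant line, and at 145 both resistant tumors were above both parental tumors, against 2 in the opposite order. Over all measured promoter sites the first 2 of these shares were 36.5% and 7.86%, and the sites of the members come from promoters chosen for a higher resistant mean. The opposite order was not counted over all sites. It held in 32.5% of all promoters, and the choice of the genes disfavors it. Between 14.3% of the CpGs of the promoter windows in Nav1 and 57.5% in Kcnk4 were measured.

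The 5 kb flanks show how far the higher methylation reached. An upstream flank was measured in 1 gene, Kcnk4, and a downstream flank in 7, of which 6 were higher in the resistant line, as were 25.4% of the downstream flanks of all promoters with one measured. In Kcnk4, Zcchc3 and Clic6 the downstream flank was higher by 23.0, 15.1 and 7.92 points. In Kcnk4 and Zcchc3 its first sites followed those of the promoter with no wide gap. In Clic6 no site was measured between 259 and 585 bp, and the level beyond was lower in every tumor. The lines were apart in the flanks of Kcnk4 and Clic6 and overlapped in that of Zcchc3. In Nav1, Cspg4 and Palm3 the flank means were above 65% in every tumor, though single sites were lower. Their differences of 3.86, 1.84 and −3.41 points were far below those of the promoters. Leaving out a single tumor or changing the coverage minimum changed the sign for Raver2, Nav1, Palm3 and Cspg4, whereas the flanks of Kcnk4, Clic6 and Zcchc3 remained higher in each alternative, though that of Zcchc3 was 5.25 points without replicate 2 of 344SQR, 9.57 points without replicate 1 of 344SQP and 24.95 points without replicate 1 of 344SQR, and that of Kcnk4 12.9 points without replicate 1 of 344SQP.

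**Figure D3:**
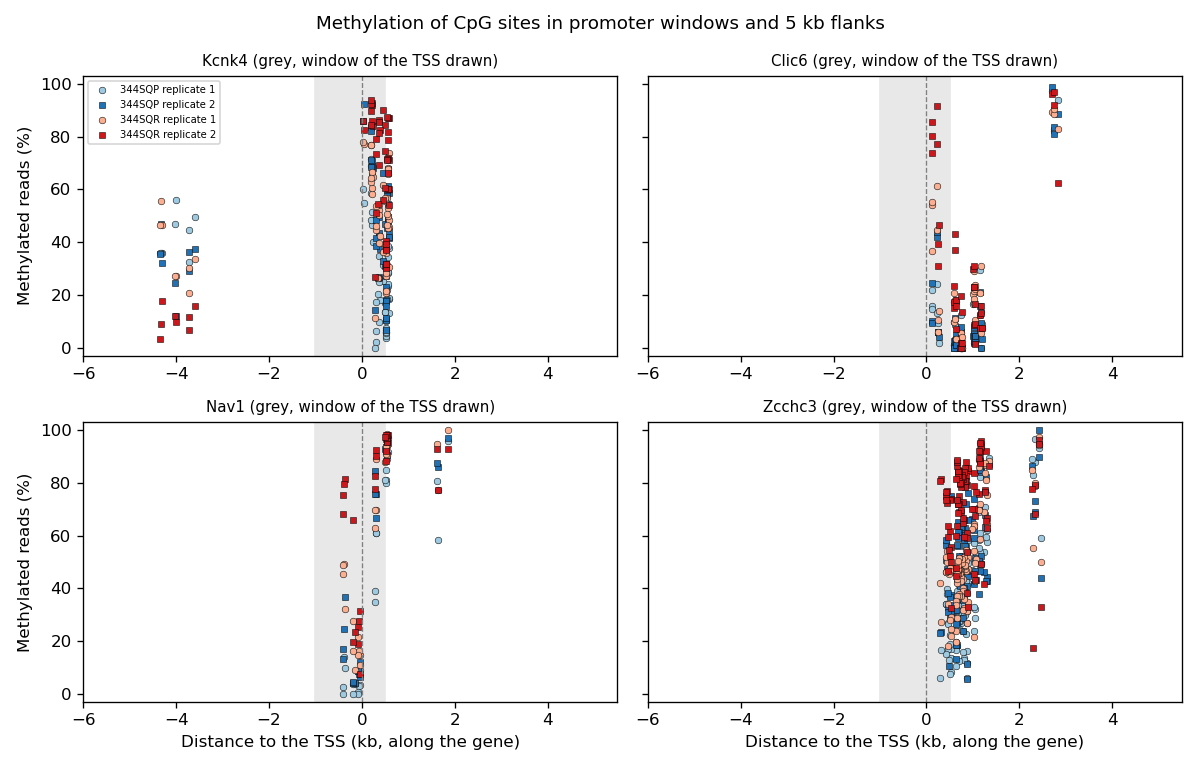
Methylation (vertical axis, percent of methylated reads) of each measured site in the promoter windows and 5 kb flanks of Kcnk4, Clic6, Nav1 and Zcchc3. The horizontal axis is the distance from the TSS in kb, with 1 panel per gene and 1 color and symbol per tumor. Grey marks the window of the TSS drawn. In Kcnk4 the flank sites of replicate 2 of 344SQR averaged 10.7% upstream and 58.4% downstream. Most Nav1 flank sites are near the top in all 4 tumors.

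The base composition of the members was mixed. Their 1500 bp windows held a median of 46 CpGs where all promoters held 64, with an observed-to-expected CpG ratio of 0.490 against 0.595, and GC content of 56.0% against 54.1%. The windows were not fully alike, since all promoters were taken at the 5′-most TSS. Nav1 entered with its measured window at 135585355, which held 80 CpGs at a ratio of 0.617. Its 5′-most window held 27 CpGs at 0.237. Raver2 stood out with 93 CpGs and a ratio of 0.838, higher than 89.6% of promoters, and Cspg4 and Kcnk4 were at 0.315 and 0.369. The members were therefore not all of the CpG-island kind. In the 300-base promoter sequences available for 8 of the 9 genes (Clic6 had none), the GC box GGGCGG was present on either strand in 7, all but Dnah7c, and in 35.7% of all such promoters, and the TATA box TATAAA in 1, Nav1, and in 13.6%. Neither CACGTG, found in 7.15%, nor TGACGT, found in 7.51%, was present in any of the 8. These shares are over all 32851 sequences, whether or not RRBS measured the promoter, so members and reference are not like sets.

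Genes of the same families as the members were also taken. Of 55 listed relatives, 42 had a measured promoter, 21 of which had a higher mean in resistant tumors, in 5 both resistant tumors were above both parental ones and in 12 both were below, and the median of their differences was −0.0660 points. Over all promoters the shares were 32.2%, 7.58% and 32.5%. Among the 12 measured potassium channel relatives of Kcnk4 the differences ran from −15.2 to 8.50 points, with 8 of the 12 higher in resistant tumors. Kcnk2 was at 29.4% and 48.5% in the parental and 19.1% and 28.4% in the resistant tumors, so both resistant tumors were below both parental ones, and Kcnk5, whose lines were apart in the direction of the members, was at 3.63% and 10.2% against 14.6% and 16.1%. None of the relatives of Clic6, Nav1, Palm3 and Rims3 had its lines apart in the direction of the members. In the chondroitin sulfate proteoglycans related to Cspg4 the largest gain was 10.1 points, in Ncan, and among the relatives of Zcchc3 a single site of Zcchc18 had 45.5% and 17.9% against 76.9% and 82.3%. The other 2 relatives with their lines apart in the direction of the members were Dnah6, at 30.9% and 29.8% against 32.8% and 34.9%, and Dnah11, at 9.75% and 11.1% against 13.7% and 23.5%. Single relatives were picked for naming after their values were seen.

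The average shape of the members, lowest in replicate 1 of 344SQP and highest in replicate 2 of 344SQR, was not that of Palm3, and Dnah7c was lowest in replicate 2 of 344SQP. Centered on each gene's own mean, the 9 members averaged −17.0, −7.06, 2.28 and 21.8 points in the order of the tumors above, and Nav1 was nearest to that profile, with a root mean square distance of 1.39 points, while Palm3 was farthest, at 9.70 points. Among other promoters with at least 5 sites, the nearest was that of Rax, a homeobox gene, at 1.66 points, with 23.3% and 36.2% in the parental and 42.1% and 65.3% in the resistant tumors. Tmem200b, with 195 sites, was at 2.65 points and had 13.2% and 26.2% against 28.5% and 53.8%. Both are among the 5 nearest promoters, which the rule for naming genes takes in. The rest of the 5 were 1700047O18Rik, AC113961.1 and Odf3l1, whose 12 sites are those of Cspg4. Rax and Tmem200b had the resistant tumors above the parental ones, an order that the choice by nearness to this profile favors.

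Values that speak to the make-up of the tumors were taken beside those of the members, and their part in the differences was not tested. In a list of 16 leukocyte genes, 5 had measured promoters, and their gene means averaged 41.6% and 49.4% in the parental and 36.1% and 37.2% in the resistant tumors, without overlap. Averaged over their 42 sites, of which 33 are in Coro1a, the values were 24.9% and 29.9% against 23.1% and 28.9%, with overlap, and the other 4 genes had 1 to 4 sites each. Of 4 fibroblast genes 3 were measured, with gene means of 41.7% and 50.9% against 38.5% and 48.5%, and means over their 26 sites, 21 of them in Pdgfra, of 18.2% and 29.6% against 18.8% and 34.2%, which overlapped and differed in the opposite direction. Of 3 endothelial genes 2 were measured, at 1 site each, with 60.9% and 81.0% against 40.2% and 75.4%, also with overlap. Of 7 genes of epithelium and lung adenocarcinoma, 4 were measured, with gene means of 6.58% and 7.68% against 6.72% and 8.46%, and means over their 167 sites of 7.64% and 9.91% against 8.85% and 11.7%, again with overlap. Replicate 2 had a smaller share of its CpG calls on chromosome X in both lines, 1.28% against 1.59% in the parental and 1.18% against 1.51% in the resistant tumors, and on chromosome Y, 0.0254% against 0.0406% and 0.0178% against 0.0555%, and it had higher methylation in 7 of the 9 members. Replicate 2 of 344SQR, the highest tumor in 8 of the 9 members, also listed the most CpG sites, 6377285 against 2770733 and 2695851 in the parental tumors and 3772295 in the other resistant tumor. Whether the replicate numbers stand for a shared batch is not stated, and with 1 tumor per line and number, batch and tumor cannot be told apart.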

How the data were processed

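RRBS of 4 tumors was reprocessed from the deposited CpG calls. Per the authors' methods, reads of 50 bases were trimmed with Trim Galore 0.4.1 and cutadapt 1.9.1, aligned to mm10 with Bismark and Bowtie 1.1.2, kept if uniquely mapped, and called with Bismark's methylation extractor and an in-house script. The values the authors deposited are, for each cytosine, the counts coverage and the percent of methylated and unmethylated reads. Methylated reads were coverage times percent, rounded. Sites needed a coverage of at least 20 in all 4 tumors, which left 1081201, with mean coverage of 103, 121, 140.5 and 144 in replicates 1 and 2 of 344SQP and of 344SQR. Promoters used every TSS of GENCODE vM21 basic transcripts; overlapping windows were joined and a site counted once per gene. Flanks were the 5 kb beyond the outermost windows. The rule for named genes (the 9 genes, their listed relatives, genes starting in their windows or flanks, and the 5 promoters nearest in profile) and the marker lists were fixed before the data were examined but with earlier results of these data known; relatives singled out by name were picked after their values were seen, and edges of stretches within genes were set after profiles were seen. No tests were run; with 2 against 2 tumors the smallest exact permutation p is 0.33. Alternatives varied the coverage minimum, window, annotation, strand merging and tumors. Python 3.11.15, numpy 2.4.6, pandas 2.3.3, scipy 1.17.1 and matplotlib 3.10.9 were used, and window assignment was checked on simulated data.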

Additional observations from a re-analysis of the deposited data

How the results depend on the processing

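The result comes from no test, so no paired analysis was run, and differences between tumors of the same number are given only as descriptions. With all 4 tumors, promoter differences of the 9 genes had 61 alternative values, all positive, of which 56 moved by less than 1 SD, with a range of 5.35 to 37.5 points. The 36 values without a tumor were positive too, from 8.68 to 49.9 points, and 14 of them moved by more than 1.5 times. The median difference ranged from 20.2 to 23.5 points with all 4 tumors and from 12.0 to 34.2 points without one. With all 4 tumors, 6 to 8 genes had both resistant tumors above both parental ones, the 6 with 8 genes measured. Of the 24 flank alternatives with all 4 tumors 1 changed sign, and of the 32 without a tumor 4 did and 15 more moved by more than 1.5 times. The downstream flank of Raver2 was at −1.43 points without 344SQP replicate 1 and at 14.7 points without 344SQP replicate 2, and that of Nav1 at −0.958 and 8.68 points. That of Palm3 was at −12.8 points without 344SQP replicate 1, at 6.01 points without 344SQP replicate 2 and at 2.54 points without 344SQR replicate 1, and that of Cspg4 at −2.03 points with a coverage of at least 10. The cause was not tested. Nav1 with only the 5′-most TSS and Zcchc3 with a window of −500 to +250 bp had no site and no value. The comprehensive annotation was chosen after seeing the data. At the coverage minimum of 20, a site changes in steps of 5 points.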
